A study of Mus musculus with 5 samples.

Results

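The circadian clock genes described here are 10 transcripts of the mouse clock: the period and cryptochrome genes Per1, Per2, Per3 and Cry1, the nuclear receptor genes Nr1d1 and Nr1d2, the repressor genes Bhlhe40 and Bhlhe41, and the output factors Dbp and Tef. They were chosen by name, and each was read from a probe set annotated to that gene only, with the highest mean over the arrays. Of these 10 genes, 9 had such a probe set, out of 22180 genes in all. Per2 shares its probe set with another gene and has no value here. The arrays hold mammary epithelial cells of mice at 4 weeks of age on a congenic FVB/NJ background. The 2 knockout arrays are from MMTV-Cre+/Mmp14(f/f) mice, in which Cre from the mammary tumour virus promoter acts on floxed alleles of Mmp14, a membrane-anchored metalloproteinase. The 3 wild-type arrays are from Mmp14(f/f) littermates, which carry the floxed alleles without Cre. Cells of the inguinal glands were freed with collagenase and parted from stroma by centrifugation, and 10 ng of RNA entered the labelling. The labels give no time of day for the harvest, and do not say whether an array holds 1 mouse or a pool, so each p-value measures the spread between these 5 samples.

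The clock is a loop of transcription that runs in most cells of the body. CLOCK and BMAL1 (the product of Arntl) bind E-boxes and switch on the Per, Cry, Nr1d, Bhlhe and Dbp genes; PER and CRY proteins then block CLOCK and BMAL1, and NR1D1 and NR1D2 silence Arntl through a second kind of element. In tissues sampled around the day, Nr1d1, Dbp, Per and Tef transcripts peak within some hours of each other, while Arntl and Npas2 peak at the opposite time. Samples taken at different clock times can therefore show these genes moving in opposite directions, but need not do so. The values below are given array by array so that such a movement can be seen. Per1 is also a fast responder to growth factors, stress and glucocorticoids, and the mammary gland is among the tissues in which the clock has been described.

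Words of control elements known from clock genes were looked for in the RefSeq promoter table of build GRCm38.p6, in the 250 bases before each start site, on both strands. The table held 8 of the 10 genes; Bhlhe40 and Per2 were the others. The E-box CACGTG was found for 4 of the 8 genes, and for 6.86% of all genes in the table. Counting the variant CACGTT as well, which is a different word and was found for 4.5% of all genes, 5 of the 8 had a match. The D-box words TTATGTAA and TTACGTAA, the element of DBP and TEF, were found for 1 of the 8, against 1.1% of all genes. The stretches below are shown because they hold these matches. Capitals mark 1 motif in each, and each stretch is printed 5′ to 3′ along the gene's strand.
Bhlhe41 (chr6:145865544-145865597, minus strand): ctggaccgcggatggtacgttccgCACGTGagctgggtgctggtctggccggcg
Per1 (chr11:69098759-69098812, plus strand): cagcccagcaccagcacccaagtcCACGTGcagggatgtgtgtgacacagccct
Cry1 (chr10:85185085-85185138, minus strand): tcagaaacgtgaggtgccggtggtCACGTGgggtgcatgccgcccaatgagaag
Tef (chr15:81811252-81811305, plus strand): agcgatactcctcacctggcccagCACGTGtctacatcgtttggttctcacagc
Nr1d1 (chr11:98775378-98775429, minus strand): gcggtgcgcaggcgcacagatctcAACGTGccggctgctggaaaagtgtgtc
Per3 (chr4:151044792-151044847, minus strand): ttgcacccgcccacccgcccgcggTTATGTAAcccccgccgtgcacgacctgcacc
The first 4 stretches carry the E-box, and that of Cry1 also holds the variant, in lower case, upstream of it. The stretch of Nr1d1 carries the variant read from the other strand, and that of Per3 carries the nearer of its 2 D-box matches. Tef had an E-box in both of its promoter windows, and Per1 in 1 of 2. The words TAGGTCA and TGGGTCA, a core of the element bound by NR1D1, were found for 0 of the 8 genes and 6.15% of all genes, and the cyclic AMP element TGACGTCA for 0 of the 8 and 1.77% of all genes. A match is a description of the letters and was not tested as a binding site.

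The array of knockout 2 stood apart from the others before any clock gene was considered. On the first principal component, with 45.0% of the variance over all genes, it scored 25.3, against -12.5 to 4.63 for the other 4 arrays. Next to it, at 4.63, was wild type 3, which shares its run of consecutive array numbers in the labels. Arrays of the other run scored -12.5 to -5.52, and the part of the run in this component was not tested. The median signal of an array ranged from 4.24 to 4.29 log2 units. The preparation carried the markers of its label, with Krt8 of luminal cells at 11.3 to 11.5 and Krt14 of basal cells at 8.96 to 9.29 log2 units. It also carried fibroblast transcripts, with Dcn at 10.2 to 10.7, and fewer cells of a type cannot be told from less RNA per cell. Mmp14 is not examined further here. Values are log2 signals, differences are knockout minus wild type, and an SD is taken over n = 2 arrays in the knockout and n = 3 in the wild type.

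No clock gene passed limma's test between the genotypes. Bhlhe41 was the only 1 of the 9 measured members with every knockout array above every wild-type array, as in 2.63% of all genes, and 0 of the 9 had every knockout array below, as in 2.8%; after median centring or repeated quantile normalisation Dbp, which has tied values, joined Bhlhe41. Knockout 2 gave the highest signal of the 5 arrays for Per1, Per3, Nr1d1, Nr1d2, Dbp and Tef. Of the 9 genes, 8 had the higher mean in the knockout, where 46.3% of all genes did, and their median difference was 0.08 log2 units against 0.00 over all genes. At an adjusted p under 0.05, 0 of the 9 were called, as were 0% of all 22180 genes. At an unadjusted p under 0.05 there was 1 of the 9, Bhlhe41, where 1.3% of all genes lay under it.

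**Figure D1:**
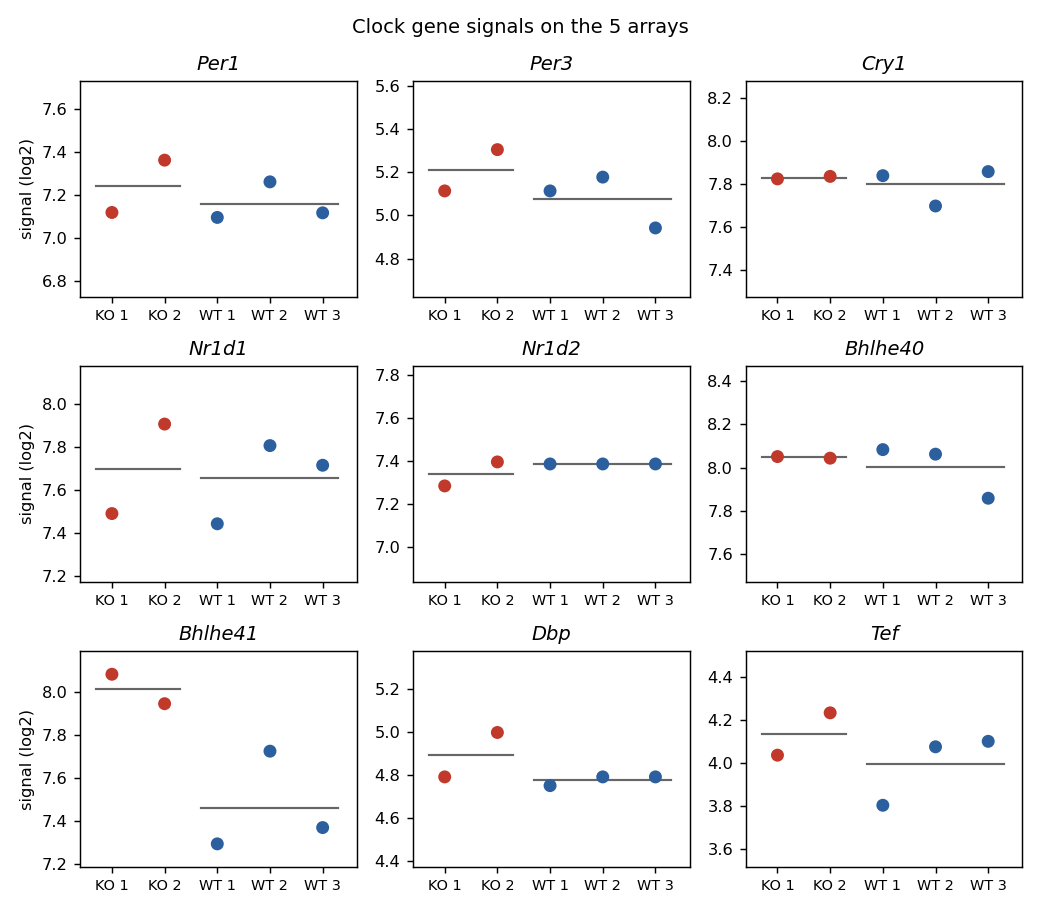
Signal in log2 units (vertical axes, each spanning 1 unit) on the knockout (KO, red) and wild-type (WT, blue) arrays for the 9 measured clock genes, with grey lines at the group means. The genotypes do not overlap for Bhlhe41, with 7.95 and 8.08 in the knockout against 7.30 to 7.73, while for Nr1d1 knockout 1 (7.49) lies beside wild type 1 (7.44) and knockout 2 (7.91) lies highest.

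Among the repressors, BHLHE41 (also called DEC2) binds E-boxes and competes with CLOCK and BMAL1, and its paralogue BHLHE40 (DEC1) does the same. Bhlhe41 (probe set 17472760) read 8.08 in knockout 1 and 7.95 in knockout 2, against 7.30, 7.73 and 7.37 in wild type 1, 2 and 3. The groups did not overlap, and wild type 2 lay nearest to the knockout arrays. The knockout mean of 8.01 ± 0.10 (SD) lay 0.55 ± 0.16 (SE) above the wild-type mean of 7.46 ± 0.23 (SD), or 1.46-fold higher with a 95% interval of 1.07 to 2.01. The unadjusted p was 0.0293 and limma's adjusted p over all genes was 0.919, so the gene was not called. Of all genes, 0.455% had a larger difference in size. The difference was 0.57 within the first run of consecutive array numbers in the labels (knockout 1, wild type 1 and 2) and 0.57 within the second (knockout 2 and wild type 3), and what a run stands for is not given. It was 0.62 without knockout 2 and 0.48 without knockout 1, so it was as large without the array that stood apart.

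Bhlhe40 (probe set 17461414) did not share that pattern. It read 8.05 and 8.04 in the knockout against 8.08, 8.06 and 7.86 in wild type 1, 2 and 3. Both knockout arrays lay inside the wild-type range, and wild type 3 was the low array. The difference was 0.05 ± 0.08 (SE; limma adjusted p = 0.943), with a 95% interval from -0.19 to 0.29. It turned to -0.02 within the first run and to -0.03 without wild type 3. BHLHE40 is also induced by low oxygen, and of the 13 measured hypoxia genes 5 had a higher and 7 a lower knockout mean (median -0.01). Among these 13, Bnip3 read 4.95 on every array, and Ldha read 3.64 to 3.82, under the median gene at 4.42. The part of low oxygen in the values of Bhlhe40 or Bhlhe41 was not tested.

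By the fixed rule, the genes with a pattern nearest to that of Bhlhe41 over the 5 arrays were Sim2, Fam43a and Rnf31, among 11089 genes brighter than the median gene. Sim2, a transcription factor of the basic helix-loop-helix and PAS class, lay at a root mean square distance of 0.08 log2 units after centring each gene. It read 5.58 and 5.51 in the knockout and 4.95, 5.17 and 4.80 in the wild type. Fam43a lay at 0.10 and Rnf31, a ubiquitin ligase, at 0.10. With 5 arrays and this many genes searched, such likeness is a description only.

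The period genes encode the repressors that, with the cryptochromes, close the loop. Per1 (probe set 17251527) read 7.12 and 7.36 in knockout 1 and 2, and 7.10, 7.26 and 7.12 in wild type 1, 2 and 3. The genotypes overlapped, with knockout 1 among the wild-type arrays and knockout 2 above them. The difference was 0.08 ± 0.10 (SE; limma adjusted p = 0.919), and it was -0.04 without knockout 2 and -0.06 within the first run. Per3 (probe set 17433328), a period gene with a strong daily rhythm in many tissues, read 5.11 and 5.31 against 5.11, 5.18 and 4.94. Knockout 1 and wild type 1 had the same value, and the wild-type arrays spanned 0.24 log2 units by themselves. Its difference was 0.13 ± 0.10 (SE; limma adjusted p = 0.919), and it was 0.04 without knockout 2.

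CRY1 is the strongest repressor of the loop, and its transcript peaks later than those of the period genes. Cry1 (probe set 17243644) read 7.82 and 7.84 in the knockout and 7.84, 7.70 and 7.86 in the wild type. Its range over the 5 arrays was 0.16 log2 units, set by wild type 2 at the bottom. The difference was 0.03 ± 0.06 (SE; limma adjusted p = 0.947), with a 95% interval from -0.14 to 0.20. Cry1 was thus 0.91 to 1.15 times its wild-type level at this interval, which is narrow beside that of Nr1d1.

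NR1D1 and NR1D2 (REV-ERB alpha and beta) are the nuclear receptors that repress Arntl. Nr1d1 (probe set 17268884) read 7.49 in knockout 1 and 7.91 in knockout 2, against 7.44, 7.81 and 7.72 in the wild type. Each genotype held a low and a high array, and the 2 knockout arrays differed by more than the genotype means did. The means were 7.70 ± 0.29 and 7.66 ± 0.19 (SD), giving a difference of 0.04 ± 0.19 (SE; limma adjusted p = 1.000), with a 95% interval of the fold from 0.71 to 1.49. It was -0.16 without knockout 2, 0.25 without knockout 1, and -0.06 without wild type 1.

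Nr1d2 (probe set 17303625) read 7.29 and 7.40 in the knockout and 7.39 on each of the 3 wild-type arrays, equal to 6 decimals. Knockout 1 lay below these and knockout 2 just above them. The difference was -0.05 ± 0.04 (SE; limma adjusted p = 0.919). Without knockout 2 it was -0.10 and passed the test (limma adjusted p = 0.0310), in a fit with 1 knockout array that called 3.76% of all genes. Such equal values make the estimated spread too small, and 68.8% of all genes held at least 1 pair of them. Among the 9 clock genes, 6 had 5 different values.

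DBP and TEF are factors that bind D-boxes and carry the rhythm to output genes. Dbp (probe set 17477979), driven by E-boxes and among the most strongly cycling transcripts of many tissues, read 4.79 in knockout 1 and 4.996 in knockout 2. The wild-type arrays read 4.75, 4.79 and 4.79, and knockout 1 had the same value as the latter pair. The difference was 0.12 ± 0.07 (SE; limma adjusted p = 0.919), and it was 0.01 without knockout 2 and 0.22 without knockout 1. Tef (probe set 17313376) read 4.04 and 4.23 against 3.80, 4.08 and 4.10, with knockout 1 inside the wild-type range. Its difference was 0.14 ± 0.13 (SE; limma adjusted p = 0.919), and it was 0.04 without knockout 2. A second Tef probe set read 3.58 on all 5 arrays. The median gene lay at 4.42 log2 units, and without detection calls a signal as low as that of Tef may be background.

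**Figure D2:**
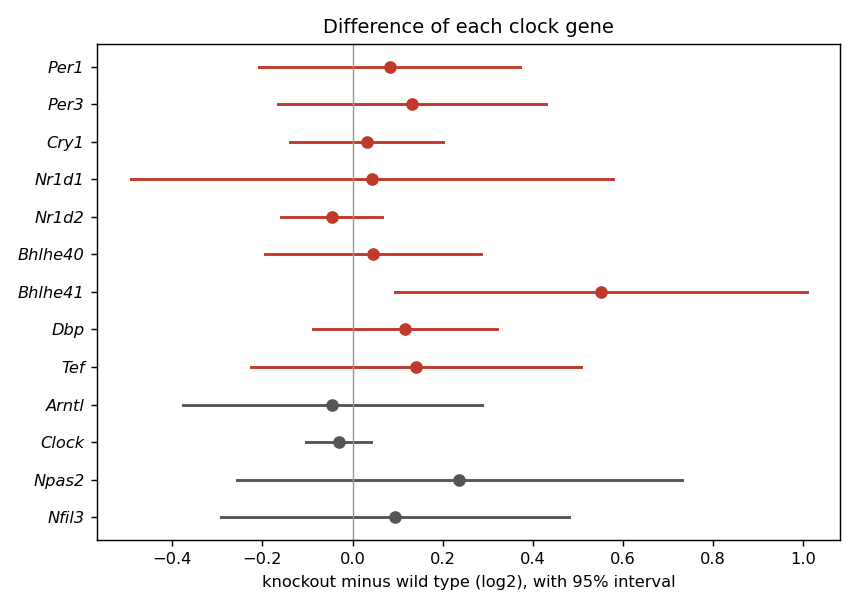
Knockout minus wild type in log2 units (horizontal axis; points) with limma's unadjusted 95% interval (lines) for the 9 measured clock genes (red) and 4 clock genes outside the set (grey). The interval of Bhlhe41 runs from 0.09 to 1.01, and each of the others spans 0, that of Nr1d1 from -0.49 to 0.58.

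Arrays of the same genotype also differed from each other in these genes. Knockout 2 was the highest array for 6 of the 9 genes, where it was highest for 21.4% of all genes and each other array for 15.4% to 18.5%. With knockout 1 left out, the knockout 2 signal lay above every wild-type array for 7 of the 9, as for 22.6% of all genes. Wild type 1 was the lowest array for 5 of the 9 (Bhlhe41, Per1, Nr1d1, Dbp and Tef), where it was lowest for 15.5% of all genes. Between the knockout arrays, 7 of the 9 genes were higher in knockout 2, as were 40.7% of all genes. Between wild type 1 and wild type 2, 6 of the 9 were higher in wild type 2, as were 38.3% of all genes. These counts were made after the values were seen. Equal values count as neither higher nor lower in the shares of all genes, and 68.8% of all genes held at least 1 pair of them.

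Genes of the opposite phase were set beside the members to see whether the phases moved in opposite directions. Arntl, which encodes BMAL1, read 7.17 and 7.10 in knockout 1 and 2 and 7.17, 7.35 and 7.02 in the wild type. Clock, its partner, read 8.19 and 8.24 against 8.22, 8.26 and 8.26. Both had overlapping groups, and neither was lowest in knockout 2. Npas2, which can replace Clock, read 4.81 and 4.58 against 4.19, 4.60 and 4.58. Nfil3, a repressor at D-boxes that opposes DBP, read 7.31 and 7.72 against 7.42 on each wild-type array. Nfil3 was thus highest in the same array as Dbp and Tef. In knockout 2 Arntl and Clock deviated by -0.08 and -0.01 from their wild-type means. There Npas2, Cry1 and Nfil3 deviated by 0.12, 0.04 and 0.30.

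In list means, each gene centred on its wild-type mean, a list of 7 measured genes of the phase of the Per genes (Per1, Per3, Nr1d1, Nr1d2, Dbp, Tef and Bhlhe41) lay at 0.06 in knockout 1 and 0.23 in knockout 2. The lists of both phases were written from general knowledge of these genes' regulation and peak times and not from the promoter search, in which Per3, Nr1d2 and Dbp had no E-box match and Cry1 had. Bhlhe40 is the only measured member in neither list. Bhlhe40 lay 0.05 above its wild-type mean in knockout 1 and 0.04 above it in knockout 2. The first list lay at -0.09, 0.10 and -0.01 in wild type 1, 2 and 3. The 5 genes listed as opposite-phase (Arntl, Npas2, Clock, Cry1 and Nfil3) lay at 0.04 and 0.07 in the knockout and -0.05, 0.05 and 0.01 in the wild type. Of these, only Arntl and Npas2 are described above as peaking at the opposite time, and Cry1 as peaking later than the period genes. The lists deviated to the same side on 4 of the 5 arrays. On wild type 3 they lay at -0.01 and 0.01. By the centring, the wild-type deviations of a list cancel out, so their signs are not independent of each other. In knockout 1 the shared side rested on single genes. Without Bhlhe41, left out after its values were seen, the first list mean there was -0.04. That is the opposite side from the second list mean of 0.04. The second list had a median of -0.01 there. Single genes also weighed on the second list elsewhere. In knockout 2 Nfil3 lay 0.30 above its wild-type mean, and the list median was 0.04. In wild type 1 Npas2 read 4.19 against its wild-type mean of 4.46, and the list median was -0.01. That Npas2 reading lay under the median gene at 4.42, and without detection calls it may be background. Of the 5 opposite-phase genes, 1, Nfil3, was highest in knockout 2. The first minus the second was 0.02 in knockout 1 and 0.16 in knockout 2, and -0.04, 0.06 and -0.02 in the wild type. With Bhlhe41 in the list, knockout 1 thus lay inside the wild-type range and knockout 2 above it. The group means were 0.09 ± 0.10 and 0.00 ± 0.05; the difference was 0.02 without knockout 2 and 0.16 without knockout 1. Without Bhlhe41 the arrays stood at -0.08 and 0.12 in the knockout and -0.02, 0.03 and -0.01 in the wild type. Knockout 1 then lay below the wild-type range and knockout 2 above it. No test was made of this score, and a difference in harvest time between the arrays was not tested.

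**Figure D3:**
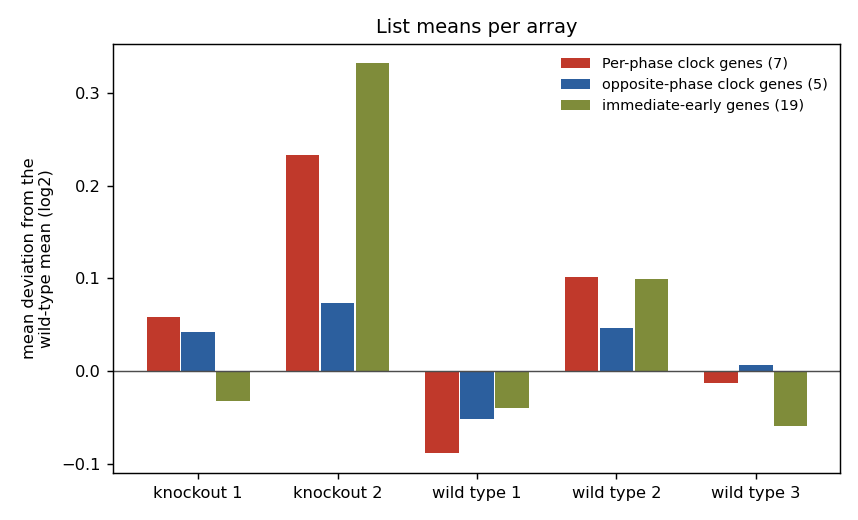
Mean deviation from the wild-type mean in log2 units (vertical axis) on each array for Per-phase clock genes (red), opposite-phase clock genes (blue) and immediate-early genes (green). In knockout 2 all these list means lie above 0, at 0.23, 0.07 and 0.33, and in wild type 1 all lie below it.

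Immediate-early genes, which collagenase digestion also induces, were also high in knockout 2. Their list mean was -0.03 in knockout 1 and 0.33 in knockout 2, and -0.04, 0.10 and -0.06 in the wild type. Knockout 2 was the highest array for 14 of the 19 measured genes. Junb, a subunit of the AP-1 factor, read 8.18 and 8.45 against 8.001, 8.18 and 8.03, and Ier2 read 6.87 and 7.04 against 6.70, 6.83 and 6.47. Zfp36, which destabilises cytokine transcripts, read 10.3 and 10.5 against 10.1, 10.3 and 10.2. None of the 19 passed limma's test, and their median difference was 0.15. Their part in the values of Per1 and the other members was not tested.

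Fibroblast markers also differed among the arrays. The mean level of the 7 measured markers was 9.09 and 9.27 in the knockout, and 8.88, 9.35 and 8.79 in the wild type, and 5 of the 7 were highest in knockout 2. The 7 endothelial markers had mean levels of 6.55 and 7.17 in the knockout and of 6.93, 7.25 and 6.82 in the wild type. The 11 luminal markers lay at 8.95 and 8.73 against 8.87, 8.86 and 8.85, and the 8 basal markers at 7.53 and 7.69 against 7.34, 7.72 and 7.33. The 6 adipocyte markers lay at 5.20 and 5.41 against 5.24, 5.22 and 5.26, and the 7 immune markers at 4.96 and 4.95 against 5.37, 5.17 and 4.94. Of the adipocyte markers, 2 were highest in knockout 2, Fabp4 at 11.3 and Retn at 5.32. Plin1, Lep and Cidec read under the median gene at 4.42 on every array. The 6 skeletal muscle markers lay between 3.59 and 3.69 on all arrays. The part of these cells in the clock gene values was not tested.

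Of the other clock genes, 13 of 16 were measured, and 0 passed limma's test. A higher mean in the knockout was seen for 5 and a lower mean for 8, with a median of -0.02. Besides the genes of the opposite phase, the largest moderated t belonged to Fbxl21 (-0.05 ± 0.03, SE), an F-box protein that acts on cryptochromes, Rorb (0.04 ± 0.03), a nuclear receptor, and Timeless (-0.04 ± 0.03), which works mainly at replication forks. Each read under the median gene. Of genes chosen after their values were seen, Ciart, a repressor of CLOCK and BMAL1 that is in neither phase list, read 6.04 and 6.06 in the knockout and 6.06, 6.09 and 6.06 in the wild type. Its range of 0.05 over the arrays lay below that of each measured member. Cry2, the second cryptochrome, read 7.06 and 6.86 against 7.06, 7.31 and 6.77, so knockout 2 lay inside the wild-type range.

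Output genes showed no common direction. Of 12 genes listed as clock output genes, 11 were measured, of which 5 had a higher and 5 a lower mean in the knockout. The median was 0.00. Upp2, 1 of them, read 2.85 to 3.04, under the median gene. Coq10b, a coenzyme Q binding protein, differed by 0.11 ± 0.09 (SE), Cdkn1a, a cell cycle inhibitor, by -0.06 ± 0.05, and Lpin1, a phosphatidate phosphatase, by 0.13 ± 0.11. Knockout 2 was the highest array for 3 of the 11. Of the 12 glucocorticoid-responsive genes, all measured, 8 had a higher knockout mean, the median was 0.06, and knockout 2 was highest for 4. Errfi1, an inhibitor of the EGF receptor, read 9.73 and 9.96 against 9.53, 9.74 and 9.74, while Sgk1, a kinase induced by glucocorticoids, read 8.94 and 8.67 against 8.69, 8.68 and 8.69 and so was highest in knockout 1. Sult1a1, a sulfotransferase, read 4.99 in knockout 1 and 5.22 on the other 4 arrays. In both lists, 0 genes passed limma's test.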

How the data were processed

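The deposited table gives log2 signals for 41345 probe sets on 5 arrays; the authors used RMA and limma, per the submitters' processing notes, with no version given. RMA corrects background, normalises by quantiles and summarises the probes of a set. The genome build and the library files of the array were not given in the sources used here. The platform annotation names 1 gene for 23521 probe sets, several for 1814 and does not list 16010; only the first were used, and the brightest probe set of each gene was kept, leaving 22180 genes. The genotypes were compared for all genes at once with limma 3.58.1 under R 4.3.3 (a two-sided moderated test from lmFit and eBayes with genotype as the only term), p-values were adjusted by Benjamini-Hochberg over all genes, and the script was tested on simulated data. The members and lists were chosen with earlier results of these data known. Of 137 listed genes, 126 were measured. Named were all members, the opposite-phase genes, the 3 genes nearest to the member of largest moderated t, and of other lists up to 3 genes by moderated t, with markers of the preparation added. The lists cover clock, output, glucocorticoid, immediate-early and hypoxia genes and cell types. Signal precision is limited by the number of arrays.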

Additional observations from a re-analysis of the deposited data

How the results depend on the processing

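Alternatives were median centring, repeated quantile normalisation, leaving out dim genes, averaged probe sets, an intensity trend, array weights, blocks for replicate number and array run, single runs, genes with 5 different values, an adjusted p under 0.10, and leaving out each array. Bhlhe41 (0.47 to 0.68), Dbp and Tef kept their direction in each alternative that gave them a value; Dbp, Per3 and Nr1d2 have none among genes with 5 different values, and the second run, with 1 array per genotype, has no test. No clock gene was called in a tested alternative except Nr1d2 without knockout 2, so 0 to 1 members and 0 to 1757 genes were called with 1 array left out (1757 without knockout 1, 835 without knockout 2), where the lone array is assumed to vary like the others. With the replicate number as a block, 0 genes and 0 members were called. Same-numbered arrays deviated together at r = 0.245 and -0.044 over genes. The largest value was 0.261, for knockout 2 and wild type 3 of the second run. With 2 knockout arrays their deviations mirror each other, so these values cannot decide on a pairing. The number was not taken as one. Members with groups that do not overlap numbered 2 after median centring and 2 after quantile normalisation (Dbp added to Bhlhe41, both higher; 10.6% and 9.3% of all genes were then higher), 3 in the first run alone (Bhlhe41 higher, Bhlhe40 and Nr1d2 lower; 23.0% of all genes higher, 23.6% lower), and 1 to 7 with 1 array left out. These were 7 higher without knockout 1 (22.6% of all genes), Bhlhe41 higher and Nr1d2 lower without knockout 2 (18.4% and 19.2%), Bhlhe41 and Per1 higher and Cry1 lower without wild type 2 (6.19% and 6.36%), and Bhlhe41 higher and Bhlhe40 lower without wild type 3 (6.46% and 6.24%). The Per-phase minus opposite-phase difference was 0.0067 in the first run, 0.18 in the second, and 0.0161 to 0.16 with 1 array left out. In the first run alone signs turned for Bhlhe40 (-0.0217), Per1 (-0.0596), Per3 (-0.032) and Nr1d1 (-0.13), and in the second for Cry1 (-0.0223) and Nr1d2 (0.0094). With the replicate block Bhlhe40 turned to -0.0254. With 1 array left out, differences ran from -0.0254 (without wild type 3) to 0.0873 for Bhlhe40, from -0.0392 (without knockout 2) to 0.2036 for Per1, from -0.0186 (without wild type 2) to 0.0612 for Cry1, from -0.16 (without knockout 2) to 0.2512 for Nr1d1, which was -0.06 without wild type 1, and from -0.1019 (without knockout 2) to 0.0094 (without knockout 1) for Nr1d2. The cause was not tested. The count of members highest in knockout 2, added after seeing the data, was 6 to 7.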
